A study of Mus musculus with 4 samples.

Results

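The intermediate filament and nuclear lamin genes are 7 genes chosen by name, Nes, Vim, Gfap, Synm, Lmna, Lmnb1 and Lmnb2, and all 7 were found among the 13881 genes of the deposited table. They were followed in 2 libraries of shRybp cells and 2 libraries of ctrl cells. Both groups were neural progenitor cells, the dividing cells from which neurons and glia arise, taken from the forebrain of C57bl/6 mouse embryos on embryonic day 14 and expanded in medium with 2% B27, 20 ng/ml EGF and 20 ng/ml FGF-2. The shRybp cells were infected with a lentivirus carrying a short hairpin RNA against Rybp, a Polycomb protein, while the vector given to the ctrl cells is not stated in the sources used here. Nothing in the labels says that libraries of a group came from different animals or infections, so the p-values below rest on a spread between libraries that may be only technical.

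Intermediate filaments are rope-like polymers that give a cell its mechanical strength, and the protein that builds them marks the cell type. In the developing forebrain, radial glia and other progenitors build their filaments from vimentin and nestin, and maturing astrocytes add the glial fibrillary acidic protein encoded by Gfap. The lamins are the nuclear members of the family and form the meshwork under the inner nuclear membrane. B-type lamins are made by nearly all cells and stay anchored to the membrane by a farnesyl group, whereas A-type lamins, both spliced from Lmna, become abundant as tissues differentiate or stiffen, and neural progenitors carry little of them.

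Total counts were between 14355308 and 17598873 per library. Rybp itself had an FPKM (counts scaled by the length of the gene model and by library size) of 3.01 and 2.66 in shRybp, against 4.43 and 3.95 in ctrl. It fell to 0.658 times the ctrl level (log2 fold change -0.60, SE 0.12, edgeR adjusted p = 0.0017), so most of the targeted transcript was still present. All 11 neural progenitor markers on the list used had values, with a summed FPKM of 1883 and 1777 in shRybp against 2815 and 2582 in ctrl. The fatty acid binding protein Fabp7 alone had 1468 and 1351 in shRybp against 2210 and 1982 in ctrl, so the sum mostly reflects that gene. Of the 10 tested, 5 fell, 0 rose and 5 did not pass, where 16.7% of all tested genes fell. Among those that fell were the Notch effector Hes5 (log2 fold change -1.79), the glutamate transporter Slc1a3 (-0.67), Fabp7 (-0.61) and the RNA-binding protein Msi1 (-0.57). Of the markers of microglia and of endothelium, 2 of 8 and 2 of 6 had values, and they had summed FPKM values of 0.173 to 0.967 in every library.

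Within the family, 3 genes rose in shRybp (Nes, Vim and Lmna), 2 fell (Gfap and Lmnb1), and Lmnb2 did not pass the test. The test was edgeR's quasi-likelihood test on counts with Benjamini-Hochberg adjustment over the 12062 genes whose FPKM averaged 1 or more over the libraries, and a gene rose or fell only at an adjusted p below 0.05. Synm had a mean FPKM below that minimum and was not tested with the others. Changes were common in these cells, with 33% of all tested genes past the threshold, 16.3% upward and 16.7% downward. Of the tested members 5 of 6 passed. The members were chosen with earlier results of these data known, so this count cannot be weighed against that share. No shRybp value lay within the range of the ctrl values for any of the 6 tested members, as was the case for 67.5% of all tested genes. The median log2 fold change of the 6 was 0.22 and that of all tested genes was 0.00. The number of calls depended on the method. Of all tested genes, 1970 rose and 2013 fell here. In DESeq2 1371 rose and 1447 fell, and with the replicate number as a block 2676 rose and 2652 fell. The balance of directions depended on scaling, with 49.5% of calls upward here, 57.9% with library totals and 56.9% in limma on log2(FPKM + 1).

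**Figure D1:**
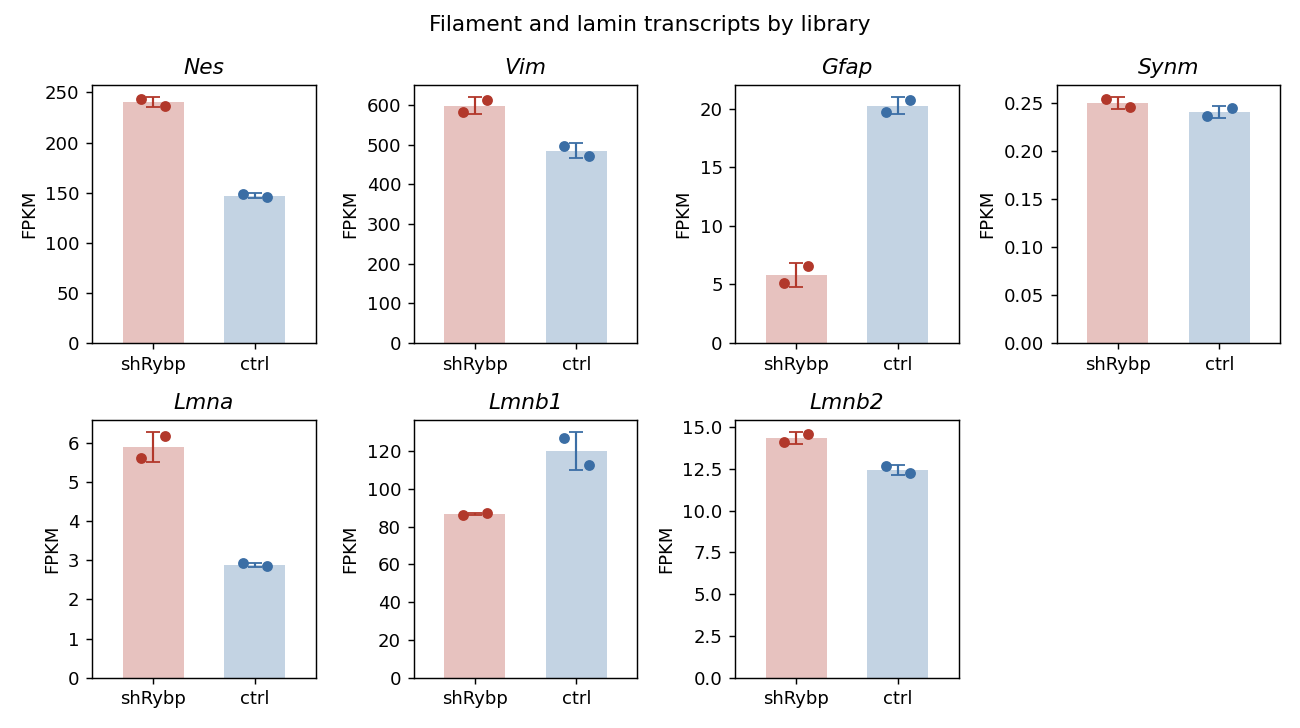
FPKM (vertical axes, each starting at 0) of the 7 filament and lamin genes in shRybp and ctrl cells; points are libraries, bars group means and error bars SD (n = 2 each). Nes, Vim and Lmna stand higher in both shRybp libraries, Gfap and Lmnb1 lower, and Synm lies near 0.25 FPKM in both groups.

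Nestin and vimentin, the filament proteins of progenitors, were both encoded by more abundant transcripts in shRybp. The list of neural progenitor markers did not rise with them. Of its 10 tested genes 5 fell and 0 rose, with a median log2 fold change of -0.34. Nes, which encodes a very large filament protein that polymerizes only together with partners such as vimentin, had 244 and 236 FPKM in shRybp, against 149 and 145 FPKM in ctrl. The libraries of a group lay within a few percent of each other and far from the other group. Nes rose by 0.67 in log2 fold change (95% interval 0.53 to 0.81, SE 0.06, edgeR adjusted p = 1.0e-05), and 6.02% of all tested genes had a larger change in either direction. The gene lies on mm10 chromosome 3 from 87971078 to 87980451 on the plus strand, and no other annotated gene overlaps it.

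Vim was the most abundant member, at rank 34 of the 13881 genes by mean FPKM. It had 583 and 614 FPKM in shRybp, against 498 and 472 FPKM in ctrl (chromosome 2, 13573927 to 13582826, plus strand). Both shRybp libraries lay above both ctrl libraries, by a small margin. Vim rose by 0.27 in log2 fold change (95% interval 0.11 to 0.42, SE 0.07, edgeR adjusted p = 0.012). The call ended without ctrl replicate 2 (log2 fold change 0.22, edgeR adjusted p = 0.079) and without shRybp replicate 2 (0.23, edgeR adjusted p = 0.069). The intervals of the log2 fold changes of Nes and Vim did not overlap, Nes being the higher.

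Gfap moved the other way and by far more. It had 5.09 and 6.55 FPKM in shRybp, against 19.8 and 20.8 FPKM in ctrl, from 309 and 454 counts in shRybp and 1471 and 1401 counts in ctrl. Both shRybp libraries lay far below both ctrl libraries. Gfap fell, its log2 fold change being -1.83 (95% interval -2.06 to -1.60, SE 0.10, edgeR adjusted p = 2.0e-07), which is 3.56-fold lower, and only 0.116% of all tested genes had a larger change. Without single libraries the log2 fold change was between -2.03 and -1.67. The gene lies on chromosome 11 from 102887336 to 102900912 on the minus strand, where a non-coding gene on the opposite strand shares no exon bases with it.

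Other astrocyte genes moved with Gfap. Of 11 astrocyte markers tested besides Gfap, 10 fell and 0 rose, with a median log2 fold change of -0.68. Of all tested genes 16.7% fell, a share to set beside this and the following counts. The lists were chosen with earlier results of these data known, so the counts are no independent support for the fall of Gfap. The summed FPKM of the list of 12 was 491 and 522 in shRybp, against 928 and 945 in ctrl. The largest falls were those of the lipid carrier Apoe (log2 fold change -2.61), the water channel Aqp4 (-1.25), the glutamate transporter Slc1a2 (-1.11) and the glycolytic enzyme Aldoc (-1.01). Oligodendrocyte precursor genes also fell in part, 3 of 6 tested with 0 rising. Those that fell were Gpr17 (-2.51), whose locus overlaps Lims2 on the other strand, Sox10 (-1.99) and Pdgfra (-1.26). Olig1 (-0.08), Olig2 (-0.11) and Cspg4 (-0.22) did not pass. Olig1 and Olig2 were the most abundant of the list, with mean FPKM of 446 and 277 in shRybp, against 462 and 290 in ctrl. Of 5 neuron markers tested 3 fell and 0 rose, Dcx (-1.22), Mapt (-1.05) and Snap25 (-0.46). Tubb3 (0.20) and Map2 (-0.18) did not pass. Dcx and Snap25 were low, with mean FPKM of 0.756 and 0.981 in shRybp, against 1.71 and 1.32 in ctrl. They reached the minimum mean of 1 FPKM only through ctrl. Snap25 lost its call without ctrl replicate 1 (edgeR adjusted p = 0.057), without ctrl replicate 2 (0.095) and without shRybp replicate 2 (0.28). In such bulk libraries, fewer cells of a type and less RNA per cell cannot be told apart, and the part of the cell mixture in the fall of Gfap was not tested.

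Because scaling of a library cancels in a ratio of 2 genes of the same library, the balance of progenitor and astrocyte filaments was also taken as the ratio of Nes to Gfap FPKM. It was 47.9 and 36.1 in shRybp, against 7.52 and 6.99 in ctrl. The log2 ratio averaged 5.38 ± 0.29 in shRybp and 2.86 ± 0.07 in ctrl (SD, n = 2 each), a 5.73-fold higher ratio in shRybp. An exact two-sided permutation test gave p = 0.333, which is the smallest value that 2 libraries against 2 can give, and adjustment over the 2 ratios tested left it at 0.333.

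The rise of Nes and the fall of Gfap left the total of the cytoplasmic filament transcripts dominated by vimentin. Summed over Nes, Vim, Gfap and Synm, FPKM was 845 ± 17.4 in shRybp and 653 ± 19.9 in ctrl (SD, n = 2 each). Nes made up 28.4% ± 1.19 of that sum in shRybp and 22.5% ± 0.34 in ctrl. Vim made up 70.8% ± 1.09 in shRybp and 74.3% ± 0.54 in ctrl. The share of Gfap was 0.688% ± 0.11 in shRybp and 3.11% ± 0.21 in ctrl, so that the gene with the largest fold change accounted for little of the total in either group.

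Synm, which encodes synemin, a large filament protein that bridges filaments to other structures, was barely present. It had 0.254 and 0.246 FPKM in shRybp, against 0.236 and 0.245 FPKM in ctrl, from 29 to 33 counts per library. These counts are too few to show any but a large change. In the fit without a minimum level its log2 fold change was 0.02 with a 95% interval from -0.56 to 0.61 (edgeR adjusted p = 0.96). Synm (chromosome 7, 67730160 to 67759742, minus strand) shares 84 exon bases with Ttc23 and 426 with Gm45102, both on the opposite strand. The strand of the reads, which would separate the genes there, is not known.

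The regions before the transcription starts of Nes and Gfap, the progenitor and astrocyte filament genes that moved in opposite directions, differ in letters. They are printed from the RefSeq promoter table (build GRCm38.p6), 5′ to 3′ on the strand of the gene, without bases that lie in an annotated exon. Capitals mark matches on either strand to 1 of 6 motifs searched, the CCAAT box (CCAAT), the GC box (GGGCGG), the TATA box (TATAAA), the core of the site for the Notch partner RBPJ (TGGGAA), a partial site of nuclear factor I (TTGGCA) and the STAT site (TTCNNNGAA). No capitals of 2 motifs overlap.
Nes, chr3:87970843-87971077, plus strand: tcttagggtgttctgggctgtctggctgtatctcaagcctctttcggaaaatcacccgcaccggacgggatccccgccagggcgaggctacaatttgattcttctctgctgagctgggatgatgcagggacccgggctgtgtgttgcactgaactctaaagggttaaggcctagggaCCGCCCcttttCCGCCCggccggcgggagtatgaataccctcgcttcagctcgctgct
Gfap, chr11:102897201-102897450, minus strand: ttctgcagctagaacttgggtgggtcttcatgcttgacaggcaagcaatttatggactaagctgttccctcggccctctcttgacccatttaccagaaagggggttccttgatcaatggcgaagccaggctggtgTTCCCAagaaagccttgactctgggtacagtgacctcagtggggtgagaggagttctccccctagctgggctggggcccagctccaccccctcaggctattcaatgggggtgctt
The Nes stretch holds 2 GC boxes, both read on the opposite strand, and GC boxes occur in 32.7% of the 32851 RefSeq windows of 250 bases before a start. The Gfap stretch holds 1 match to the RBPJ core on the opposite strand, 115 bases before the start, and 21.6% of windows hold one. A non-coding transcript of Gfap annotated in GENCODE M21 starts farther upstream, and the printed stretch is intronic in it. The whole window of 250 bases held 15 CG dinucleotides at Nes and 2 at Gfap, against a median of 6 over all windows. Of all windows, the CCAAT box was held by 33.8%, the TATA box by 12.4%, the partial site by 12.3% and the STAT site by 7.02%, and no match to these was found in the printed stretches. A match is a string of letters and says nothing of binding in these cells.

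The lamins shifted toward the A type. Lmna, which encodes lamins A and C, had 5.62 and 6.17 FPKM in shRybp, against 2.92 and 2.85 FPKM in ctrl, from 472 and 592 counts in shRybp and 301 and 266 counts in ctrl. Both shRybp libraries lay well above both ctrl libraries. Lmna rose by 0.99 in log2 fold change (95% interval 0.80 to 1.19, SE 0.09, edgeR adjusted p = 7.1e-06), and 1.90% of all tested genes had a larger change. The value per gene does not separate the transcripts of lamin A and lamin C. Lmna lies on chromosome 3 from 88480147 to 88509956 on the minus strand and is overlapped by no other annotated gene.

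Lmnb1, the main B-type lamin of progenitors and needed for normal brain development, went down. It had 86.3 and 87.2 FPKM in shRybp, against 127 and 113 FPKM in ctrl (chromosome 18, 56707813 to 56753424, plus strand). The ctrl libraries differed more from each other than the shRybp libraries did, but the groups did not overlap. Lmnb1 fell, its log2 fold change being -0.50 (95% interval -0.65 to -0.35, SE 0.07, edgeR adjusted p = 0.00017), and 11.9% of all tested genes had a larger change. Genes of cell division were read beside it. Of 6 proliferation markers tested, 4 rose, 0 fell and 2 did not pass, where 16.3% of all tested genes rose. Those that rose were the replicative helicase subunit Mcm2 (log2 fold change 0.65), the polymerase clamp Pcna (0.34), the mitotic cyclin Ccnb1 (0.32) and the mitotic kinase Cdk1 (0.27). Their relation to the fall of Lmnb1 was not tested.

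Lmnb2, the other B-type lamin, had 14.1 and 14.6 FPKM in shRybp, against 12.7 and 12.2 FPKM in ctrl (chromosome 10, 80901203 to 80918245, minus strand). Its values were slightly higher in both shRybp libraries but the difference missed the threshold (log2 fold change 0.17, 95% interval 0.00 to 0.34, SE 0.08, edgeR adjusted p = 0.11). The intervals of Lmnb1 and Lmnb2 did not overlap each other, nor did that of Lmna overlap either.

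**Figure D2:**
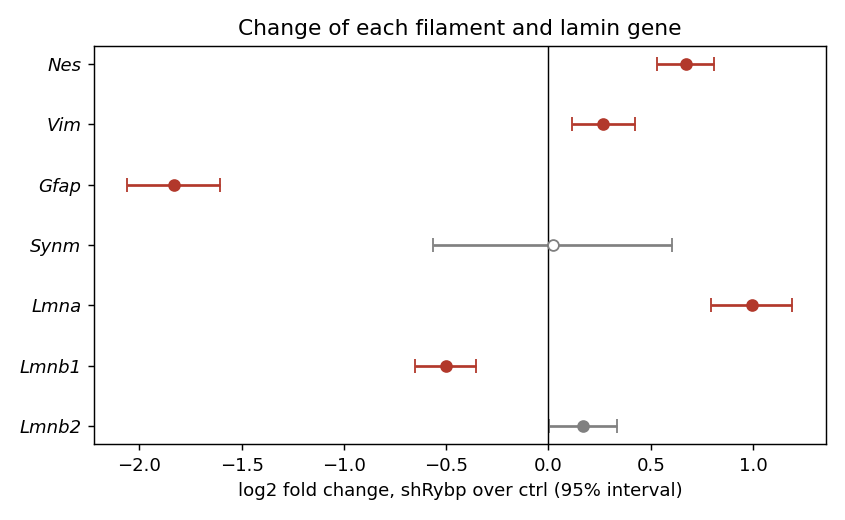
Log2 fold change (horizontal axis, shRybp over ctrl) of each filament and lamin gene with its 95% interval from edgeR. Red points passed the test, grey points did not, and the open grey point is Synm from the fit without a minimum level; Gfap stands apart at -1.83 and Lmna at 0.99 is the highest.

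Despite the rise of Lmna, Lmnb1 remained the main lamin transcript in both groups. The lamins summed to 107 ± 1.38 FPKM in shRybp and 135 ± 10.5 FPKM in ctrl (SD, n = 2 each). Lmna made up 5.51% ± 0.29 of this sum in shRybp and 2.14% ± 0.13 in ctrl, Lmnb1 made up 81.1% ± 0.46 in shRybp and 88.6% ± 0.63 in ctrl, and Lmnb2 made up 13.4% ± 0.17 in shRybp and 9.23% ± 0.50 in ctrl. The ratio of Lmna to the sum of both B-type lamins was 0.0560 and 0.0606 in shRybp, against 0.0209 and 0.0228 in ctrl. That is a 2.66-fold higher ratio in shRybp, a difference of 1.41 on the log2 scale. The exact two-sided permutation test again gave its smallest possible value (p = 0.333, also 0.333 adjusted over the 2 ratios).

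**Figure D3:**
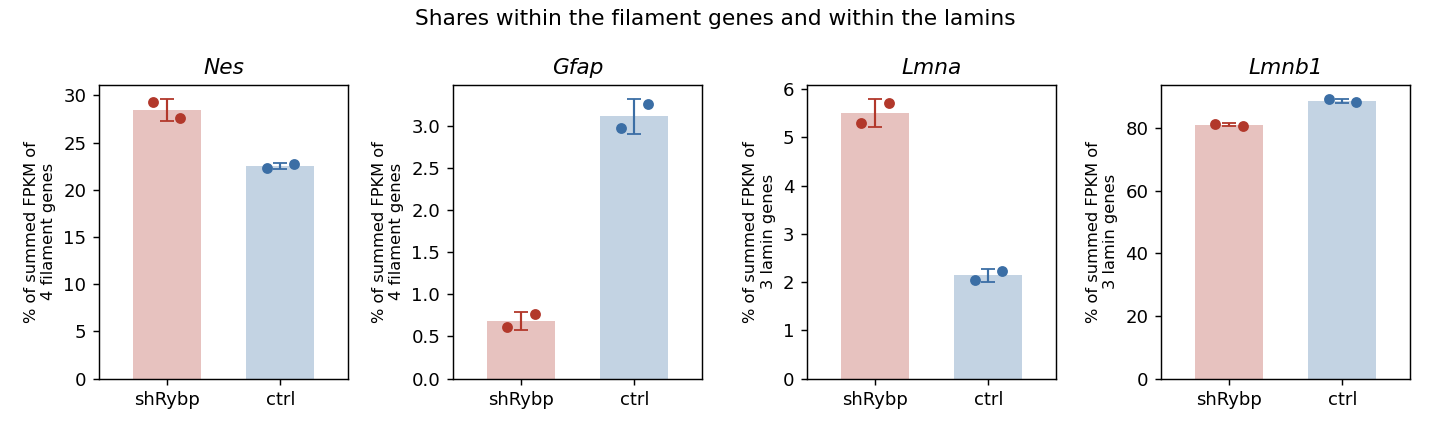
Share (vertical axes, %, from 0) of Nes and Gfap in the summed FPKM of the 4 cytoplasmic filament genes, and of Lmna and Lmnb1 in that of the 3 lamin genes, in shRybp and ctrl cells. Points are libraries, bars means and error bars SD (n = 2 each); the Lmna share is 5.51% in shRybp and 2.14% in ctrl, while Lmnb1 is at least 80.8% in every library.

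Vimentin and A-type lamins are also abundant in mesenchymal cells, so markers of those cells were read beside them. Of 8 mesenchymal markers, 2 had values, Rgs5 and Acta2, and their summed FPKM was 2.90 and 2.46 in shRybp, against 1.70 and 1.69 in ctrl. The smooth muscle actin gene Acta2 rose (log2 fold change 0.69, edgeR adjusted p = 0.019), but not without ctrl replicate 2 (0.61, edgeR adjusted p = 0.076) or without shRybp replicate 1 (0.58, edgeR adjusted p = 0.11). Rgs5, a pericyte gene, was at most 0.306 FPKM in every library, and the collagen genes Col1a1, Col1a2 and Col3a1 and the genes Dcn, Lum and Pdgfrb were not analysed here. Their part in the rises of Vim and Lmna was not tested.

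By level, the order in shRybp was Vim, Nes, Lmnb1, Lmnb2, Lmna, Gfap and Synm, with Lmna and Gfap overlapping. In ctrl it was Vim, Nes, Lmnb1, Gfap, Lmnb2, Lmna and Synm, with no overlap between neighbours. FPKM is per length of gene model, and the lengths it implies, from 2967 bases for Lmnb1 to 7948 for Synm, lie close to the summed annotated exons of each gene, from 2962 to 7933 bases. Where cells use shorter transcripts than the summed exons, levels between genes are understated. Differences between the groups for a gene are not touched by the length if both groups use the same transcripts, which was not tested.

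Of 14 other filament genes listed, 4 had values and 10 were not analysed here. The 4 with values were low, at most 4.31 FPKM in any library. Of these, 3 were tested, of which 1 fell and 0 rose, where 33% of all tested genes passed. Ina, which encodes the neuronal filament protein alpha-internexin, fell (log2 fold change -0.67, SE 0.15, edgeR adjusted p = 0.0037), with 2.36 and 2.82 FPKM in shRybp, against 4.31 and 3.75 FPKM in ctrl. Of the linker proteins that tie filaments to other cytoskeletal fibres and junctions, 3 of 7 were tested. Among the tested linkers 1 rose and 0 fell, beside the same share of 33%. That gene was Dst, which encodes dystonin (log2 fold change 0.31, edgeR adjusted p = 0.018), and its call ended without ctrl replicate 1 (0.23, edgeR adjusted p = 0.066) and without shRybp replicate 1 (0.16, edgeR adjusted p = 0.18).

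Proteins that bind the lamins or share the nuclear envelope with them were read as a further list. Of 16 tested, 3 rose and 1 fell, 12 did not pass and the median log2 fold change was 0.07, where 33% of all tested genes passed. FPKM values were apart between the groups for 8 of the 16, and for 67.5% of all tested genes. The genes that rose encode nurim, a protein of the inner nuclear membrane (Nrm, 0.46), the chromatin-bridging factor BAF (Banf1, 0.35) and the lamin B receptor (Lbr, 0.35). Lbr had 17.8 and 16.8 FPKM in shRybp, against 13.3 and 13.2 FPKM in ctrl (edgeR adjusted p = 0.0027), so the receptor of B-type lamins rose where Lmnb1 fell. Nrm lost its call without shRybp replicate 2 (log2 fold change 0.29, edgeR adjusted p = 0.12). Tor1aip1, which encodes the lamina-associated protein LAP1, fell (log2 fold change -0.23, edgeR adjusted p = 0.023), a call that ended on leaving out any library, with values between -0.26 and -0.20 and edgeR adjusted p-values from 0.053 to 0.16.

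Of the 5 enzymes that modify the tails of lamins, 1 rose, 1 fell and 3 did not pass, where 33% of all tested genes passed. The median log2 fold change of the list was 0.00. Icmt, which methylates the farnesylated end, rose with 7.64 and 8.29 FPKM in shRybp, against 4.81 and 5.42 FPKM in ctrl (log2 fold change 0.61, SE 0.09, edgeR adjusted p = 0.00035). Fnta, a subunit of the farnesyltransferase, fell (log2 fold change -0.28, edgeR adjusted p = 0.026), and lost the call without ctrl replicate 1 (-0.19, edgeR adjusted p = 0.18) and without shRybp replicate 2 (-0.20, edgeR adjusted p = 0.21). Zmpste24, the protease that matures lamin A, had 14.9 and 14.6 FPKM in shRybp, against 14.8 and 13.97 FPKM in ctrl, and did not pass (95% interval of the log2 fold change -0.15 to 0.14).

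**Figure D4:**
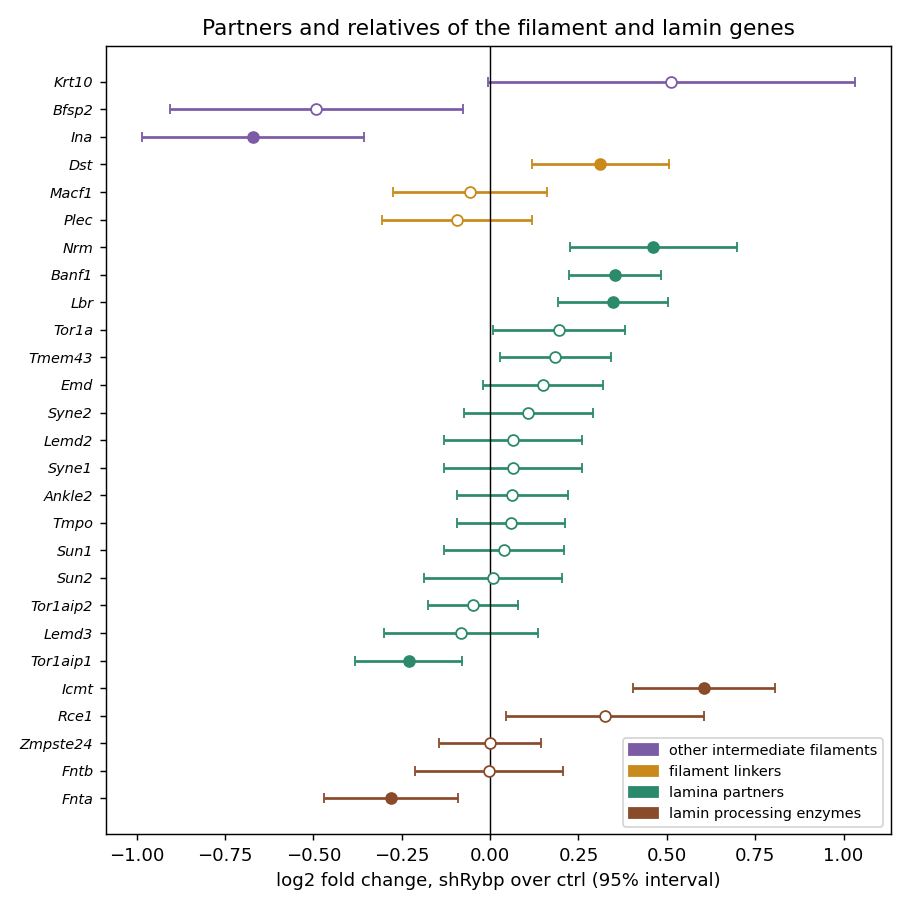
Log2 fold change (horizontal axis, shRybp over ctrl) with 95% interval of the tested genes of the 4 related lists, coloured by list and ordered by value within it. Filled points passed the edgeR test and open points did not; Ina at -0.67 and Icmt at 0.61 are the largest changes that passed.

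The tested genes whose profile over the 4 libraries lay closest to that of Nes were Slc6a6, Rrm2 and Tbc1d1. Closeness is the root mean square difference of log2 library-scaled counts, each centred on its mean over the 4 libraries, and was 0.016, 0.023 and 0.024 for these genes. Their log2 fold changes were 0.68 for Slc6a6, the taurine transporter, 0.66 for Rrm2, a ribonucleotide reductase subunit, and 0.64 for Tbc1d1, a regulator of Rab GTPases. Closest to Gfap were Hes5 (0.028), Ttyh1 (0.059) and Dscaml1 (0.080), with log2 fold changes of -1.79, -1.90 and -1.87. Hes5, a transcriptional repressor induced by Notch, had 9.03 and 11.4 FPKM in shRybp, against 34.0 and 35.1 FPKM in ctrl. With 4 libraries in 2 groups, many genes with a like change lie close by this measure.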

How the data were processed

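RNA was measured in 2 shRybp and 2 ctrl libraries. Per the file headers, the deposited columns are read counts per gene, not normalized, and FPKM values. The submitters' processing notes name mm10 as the build. Between libraries, the ratio of count to FPKM changed by the same factor for all genes with counts in every library (largest relative difference 3.6e-08). FPKM thus carries no correction that differs between libraries from gene to gene. A correction of a gene shared by all libraries would not show in this check. The sources used here name neither the aligner nor the counting program, nor whether strand was used. Every gene had at least 40 counts over the 4 libraries. Of the identifiers, 13870 were found in GENCODE M21, which gave chromosomes and exons, and 13749 had the same start and end.

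Counts were fitted with edgeR 4.0.16 in R 4.3.3 (TMM scaling, quasi-likelihood test, two-sided, genes averaging 1 FPKM or more). SE was derived from the log2 fold change and F, and intervals are 95%. On simulated data for shRybp against ctrl with 12062 genes, 54 of 67 genes changed 1.5-fold, 63 of 67 changed 2-fold and 65 of 66 changed 3-fold were found, with 17 unchanged genes called. Far fewer genes were changed there than the 33% called in the real data, so these figures need not carry over. Replicates differed beyond counting noise (chi-square per degree of freedom 5.18 for ctrl and 4.36 for shRybp). The alternatives were RLE size factors, library totals, no minimum level, DESeq2 1.42.0, limma 3.58.1 on log2(FPKM + 1) and log2(FPKM + 0.1), a replicate block, and leaving out each library. The members and lists were chosen with earlier results of these data known. Up to 4 genes of each list that passed, those with the largest change, were named.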

Additional observations from a re-analysis of the deposited data

How the results depend on the processing

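Under 11 alternatives, Nes (log2 fold change 0.64 to 0.71), Lmna (0.83 to 1.06), Gfap (-2.03 to -1.65) and Lmnb1 (-0.60 to -0.41) kept their direction and their call, and Lmnb2 (0.13 to 0.20) passed under none of them. Vim (0.22 to 0.31) lost its call without ctrl replicate 2 (0.22) and without shRybp replicate 2 (0.23), and 2 to 3 members rose and 2 fell when single libraries were left out. Leaving out a library leaves 1 in its group, which is then assumed to vary like the others. These fits gave log2 fold changes of 0.64 to 0.695 for Nes, 0.22 to 0.31 for Vim, -2.03 to -1.67 for Gfap, 0.93 to 1.06 for Lmna, -0.60 to -0.41 for Lmnb1 and 0.13 to 0.20 for Lmnb2, with 1296 to 1640 genes rising and 1481 to 1760 falling. The log2 difference in ratio was then 2.32 to 2.72 for Nes to Gfap and 1.35 to 1.48 for Lmna to B-type lamins. With 1 added to each FPKM the lamin difference was 1.21, since the addition weighs most on the low Lmna values. With limma on log2(FPKM + 0.1), 1189 genes fell, and the cause was not tested. The numbers of the replicates are not said to pair the libraries, whose same-numbered deviations correlated at 0.10. With the replicate number as a block, Vim had a log2 fold change of 0.27 and the calls of the members did not change. Of 363 values of the other 33 named genes, 28 lost their call and 0 reversed. Dst, Tor1aip1, Fnta, Snap25 and Acta2 did not pass in DESeq2 (adjusted p from 0.052 to 0.19), and all of these but Acta2 did not pass in limma on log2(FPKM + 1) either (adjusted p from 0.076 to 0.11). Depth limits Synm, with 29 to 33 counts per library.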
